A study of Mus musculus with 10 samples.

Results

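The genes described here are 7 that encode sarcomeric myosin light chains or their kinases: Myl1, Mylpf, Myl2, Myl3, Myl6b, Mylk2 and Mylk4. They were chosen by name and with earlier results of these data known, from 20009 genes with at least 1 count. The counts of all transcripts of each gene were summed. The libraries come from 2 muscles of wild type mice, the soleus of the calf, which is rich in slow fibers, and the tibialis anterior (TA) of the shin, which is rich in fast fibers. There are 10 libraries, of which 5 are soleus and 5 are TA, and each muscle has 3 male and 2 female libraries. The sources used here name no strain, age or treatment. The labels number the replicates within each sex but do not say that a number is a mouse. The names of the deposited tables carry a code that a soleus and a TA library of the same sex and number share and that differs between the 5 pairs, and what it stands for is not stated. Taken as they are, p-values measure only the spread between these libraries. Each library held 726075 to 961237 counts.

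A myosin motor carries light chains on the neck of its heavy chain, one essential and one regulatory. The essential light chains stiffen the lever arm, and the regulatory light chains can be phosphorylated, which in skeletal muscle raises the force at a given calcium level. In mouse limb muscle, Myl1 and Mylpf encode the essential and the regulatory light chain of fast fibers, and Myl3 and Myl2 those of slow fibers and of the heart ventricle. Myl6b encodes a further essential light chain of slow and embryonic muscle. Mylk2 encodes the skeletal muscle myosin light chain kinase, which calcium-bound calmodulin switches on, and Mylk4 a relative of it found in striated muscle.

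The first coding bases show how alike and how different the light chain genes are, and the transcripts of the pairs of fast and slow counterparts are given for that comparison. Sequences were taken from the GENCODE M21 transcripts of GRCm38, and capitals mark the start codon in the 4 essential light chain transcripts. Myl1 is shown by its long and its short product, which begin at different starts in the gene. For the regulatory pair, capitals mark a run of 14 bases that both genes hold.
Myl1-201, chr1:66944846-66944905, minus strand: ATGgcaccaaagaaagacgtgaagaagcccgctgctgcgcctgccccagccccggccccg
Myl1-202, chr1:66930298-66935278, minus strand, exons 1 to 3: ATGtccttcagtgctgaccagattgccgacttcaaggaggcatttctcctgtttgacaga
Myl3-201, chr9:110763745-110763804, plus strand: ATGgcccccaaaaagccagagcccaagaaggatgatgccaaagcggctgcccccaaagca
Myl6b-201, chr10:128497312-128497371, minus strand: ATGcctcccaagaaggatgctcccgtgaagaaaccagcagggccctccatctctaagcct
Mylpf-201, chr7:127211761-127212917, plus strand, exons 1 and 2: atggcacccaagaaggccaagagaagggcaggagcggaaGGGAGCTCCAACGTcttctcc
Myl2-201, chr5:122101027-122101805, plus strand, exons 1 and 2: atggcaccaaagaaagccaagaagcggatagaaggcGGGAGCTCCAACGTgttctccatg

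Over their aligned coding bases, Mylpf-201 and Myl2-201 were 71.7% identical. Myl1-201 was 73.6% identical to Myl3-201 and 71.8% identical to Myl6b-201, and Myl3-201 was 72.5% identical to Myl6b-201. The 6 pairs of an essential and a regulatory chain were 60.1% to 66.9% identical, with Myl1-201 and Myl2-201 at the low end and Myl1-201 and Mylpf-201 at the high end. The long and short products of Myl1, with 564 and 450 coding bases, share their last 423 coding bases and differ before them.

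All 7 genes differed between the muscles, 3 higher in soleus and 4 higher in TA. Myl3, Myl2 and Myl6b, the slow light chains, were higher in soleus by 46.7-fold or more. Mylpf and Myl1, the fast light chains, were higher in TA by 6.89-fold and 3.04-fold, and the kinase genes Mylk4 and Mylk2 by 22.7-fold and 4.55-fold. The test was the edgeR quasi-likelihood test with sex as a covariate, and a gene was called at a Benjamini-Hochberg adjusted p under 0.05 over 5115 genes tested. It called 22% of those genes, 11% toward each muscle. For each of the 7 genes the soleus and TA libraries did not overlap, which was the case for 15.1% of the genes tested. The 7 genes were chosen with earlier results of these data known, so setting them beside these shares tests nothing about the list. Since RNA came from whole muscle, fewer cells of a type and less RNA per cell cannot be told apart.

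**Figure D1:**
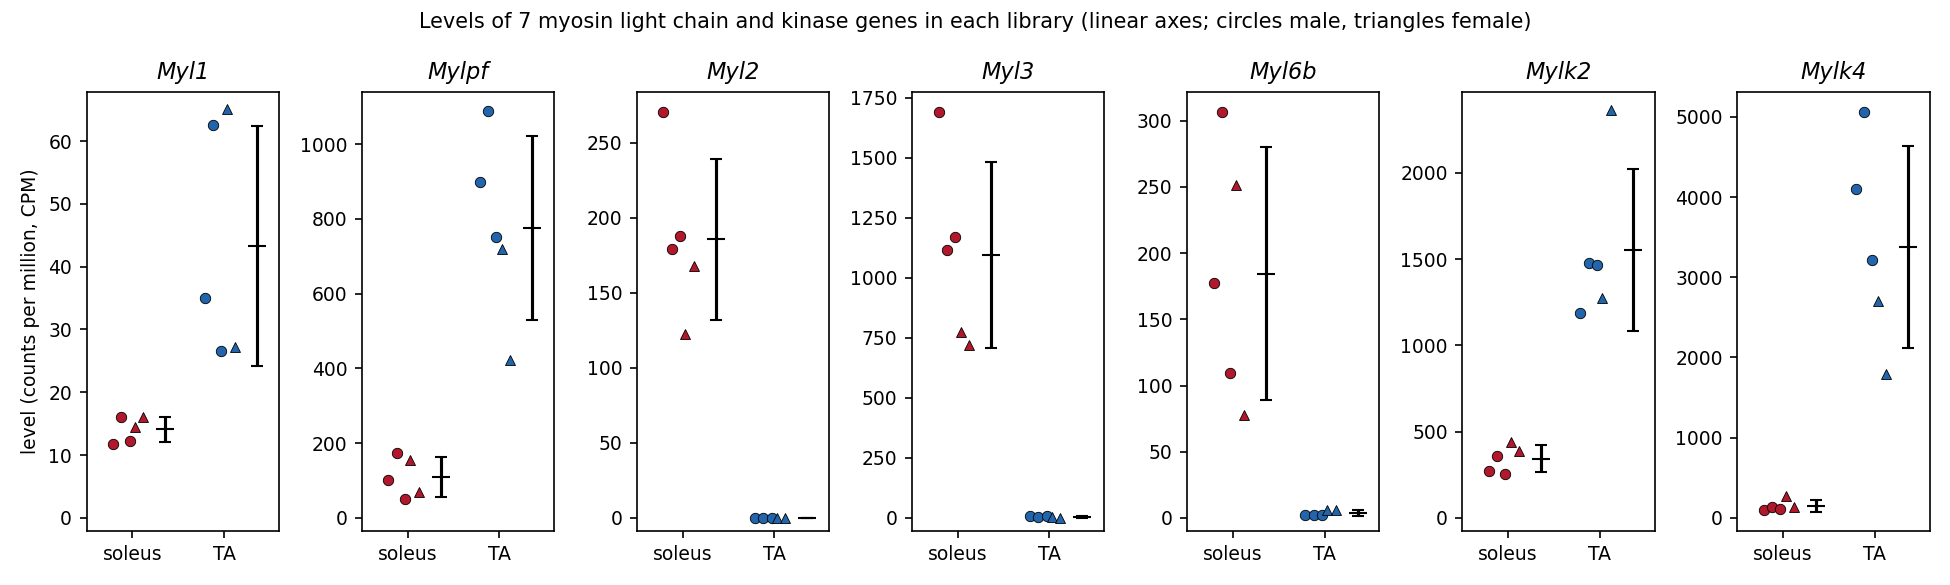
Level of each of the 7 genes in each library, in CPM on one linear axis per gene, by muscle. Circles are male and triangles female libraries, and the bars give the mean and SD over 5 libraries. Myl2, Myl3 and Myl6b sit near or at 0 in TA, while Myl1, Mylpf, Mylk2 and Mylk4 have counts in both muscles with no overlap between them.

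Among the essential light chains, Myl3 (chr9:110741861-110769798, plus strand) had the most counts in soleus. Levels are in CPM, counts scaled to library size, after adjustment of library sizes by TMM, the trimmed mean of M values. In soleus Myl3 was at 1689, 1114 and 1171 CPM in males 1, 2 and 3 and at 774 and 721 CPM in females 1 and 2. In TA it was at 9.02, 2.32, 9.25, 4.65 and 0 CPM in the same order. Every soleus library lay far above every TA library, and within soleus the 3 males lay above both females. The log2 fold change of soleus over TA was 7.77 (standard error, SE, 0.39, n = 5 per muscle, adjusted p = 6.0e-08 by edgeR). It rested on 4447 counts summed over soleus and 22 summed over TA, which is a ratio of 223 with a 95% exact counting interval of 147 to 356.

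Myl6b (chr10:128494157-128498685, minus strand), the other slow essential chain, followed the same muscle with a wider spread. Its soleus levels were 178, 306 and 109 CPM in males 1, 2 and 3 and 252 and 77.7 CPM in females 1 and 2. Its TA levels were 2.26, 2.32 and 2.31 CPM in the males and 5.82 and 6.04 CPM in the females. The highest soleus library, male 2, stood at nearly 4 times the lowest, female 2, and the sexes overlapped. The log2 fold change was 5.55 (SE 0.48, adjusted p = 5.39e-06 by edgeR), from 729 and 17 counts.

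Myl1 (chr1:66924295-66945404, minus strand), the fast essential chain, was counted thinly and differed least. Soleus libraries held 11.7, 16.1 and 12.3 CPM in males 1, 2 and 3 and 14.5 and 16.0 CPM in females 1 and 2. TA libraries held 35.0, 62.6 and 26.6 CPM in the males and 65.1 and 27.2 CPM in the females. TA fell into a higher pair, male 2 and female 1, and a lower group of 3, all above soleus. The log2 fold change was -1.61 (SE 0.31, adjusted p = 0.00285 by edgeR), from 57 counts in soleus and 191 in TA. Part of the Myl1 sequence is shared with a processed copy, Mylf-ps (chr12:101221997-101222417, 421 bases), which holds 299 of the 2067 distinct 31-base words of Myl1 transcripts. That copy had 24 counts in soleus and 79 in TA, so how reads were split between Myl1 and Mylf-ps is uncertain.

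Of the regulatory light chains, Myl2 (chr5:122100951-122113472, plus strand) had no count in any TA library. In soleus it was at 270, 179 and 188 CPM in males 1, 2 and 3 and at 123 and 168 CPM in females 1 and 2. Every soleus library held at least 93 Myl2 counts, against a floor of 3 counts, which is 3.02 to 3.49 CPM in 1 TA library. Set against a floor of 3 counts for the TA libraries together, the 758 counts of soleus put Myl2 at least 279-fold higher in soleus than in TA (adjusted p = 1.27e-06 by edgeR). Counting intervals and floors cover counting error only.

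Mylpf (chr7:127208890-127214298, plus strand), the fast regulatory chain, was present in both muscles. In soleus it was at 101, 174 and 51.6 CPM in males 1, 2 and 3 and at 156 and 68.5 CPM in females 1 and 2. In TA it was at 900, 1088 and 752 CPM in the males and at 719 and 421 CPM in the females. The lowest TA library, female 2, was still above the highest soleus library, male 2. The log2 fold change was -2.78 (SE 0.34, adjusted p = 8.03e-05 by edgeR), from 436 and 3425 counts.

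Both fast light chains were thus counted in soleus, while the slow ones were at or near 0 in TA. Set per kilobase of transcript, the fast member made up 2.27% ± 0.949 (SD, n = 5) of the sum of Myl1 and Myl3 in soleus and 92.4% ± 7.67 in TA. For the regulatory pair, Mylpf made up 21.7% ± 11.1 of the sum of Mylpf and Myl2 in soleus, with libraries from 11.4% to 37.2%, and 100% in each TA library. Without division by length, the Mylpf share in soleus was 36.6%. The Myl1 share in soleus fell to 1.11% when only transcripts annotated as protein-coding were summed. These shares carry no test, since they were built from genes chosen with earlier results known, and both depend on how much of each gene the files can count.

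The kinase genes were both higher in TA. Mylk4 (chr13:32700834-32783954, minus strand) was at 94.7, 131 and 111 CPM in soleus of males 1, 2 and 3 and at 277 and 131 CPM in soleus of females 1 and 2. In TA it was at 4105, 5060 and 3217 CPM in the males and at 2702 and 1793 CPM in the females. The 3 male TA libraries lay above both female ones, and in soleus female 1 stood above the other 4 libraries. The log2 fold change was -4.50 (SE 0.37, adjusted p = 4.23e-06 by edgeR), from 594 and 14896 counts.

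Mylk2 (chr2:152911352-152923068, plus strand), the calmodulin-dependent kinase of skeletal muscle, differed less. In soleus it was at 271, 361 and 256 CPM in males 1, 2 and 3 and at 440 and 387 CPM in females 1 and 2. In TA it was at 1190, 1476 and 1464 CPM in the males and at 1273 and 2363 CPM in the females. Soleus females lay above soleus males, and TA female 2 stood above the other TA libraries. The log2 fold change was -2.18 (SE 0.19, adjusted p = 4.78e-06 by edgeR), from 1383 and 7039 counts.

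The balance of the kinase genes also shifted. Per kilobase, Mylk4 was at 0.371 ± 0.152 (SD, n = 5) of Mylk2 in soleus, from 0.253 to 0.626 over the libraries. In TA the ratio was 2.65 ± 1.24, from 0.848 to 3.84. TA female 2, the library with the most Mylk2 and the least Mylk4 in TA, was the one TA library in which the ratio lay below 1. Without division by length, the ratio was 0.423 ± 0.121 in soleus and 2.39 ± 1.11 in TA. The ratio per kilobase depends on how counts were split over Mylk4 transcripts of unequal length. The ranges of the 2 muscles did not overlap by either measure, and no test was made of this ratio.

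**Figure D2:**
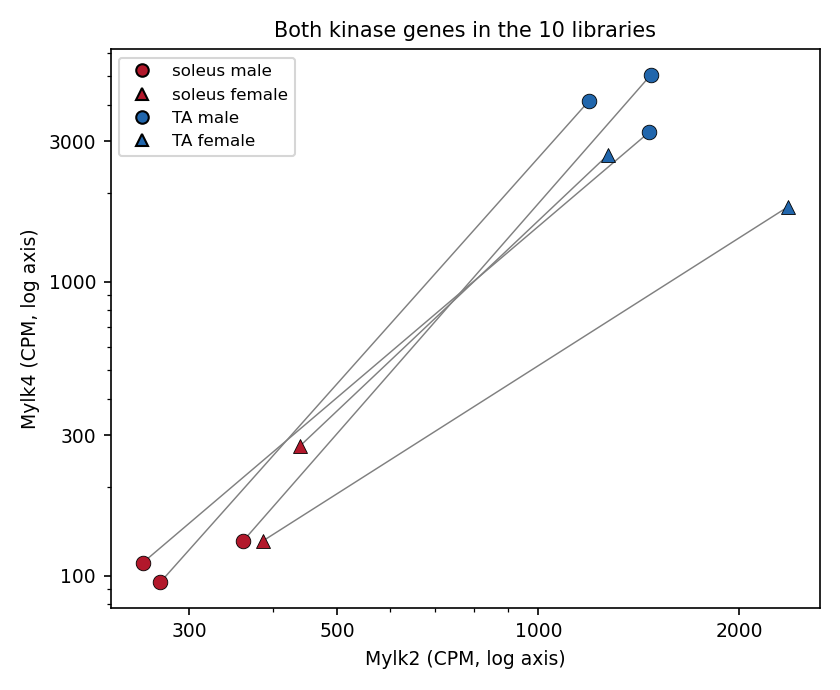
Mylk4 against Mylk2 in CPM, both on log axes, in the 10 libraries. Grey lines join soleus and TA libraries of the same sex and replicate number; every line rises to the right, and TA female 2 lies far to the right with a Mylk4 level of 1793 CPM.

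**Figure D3:**
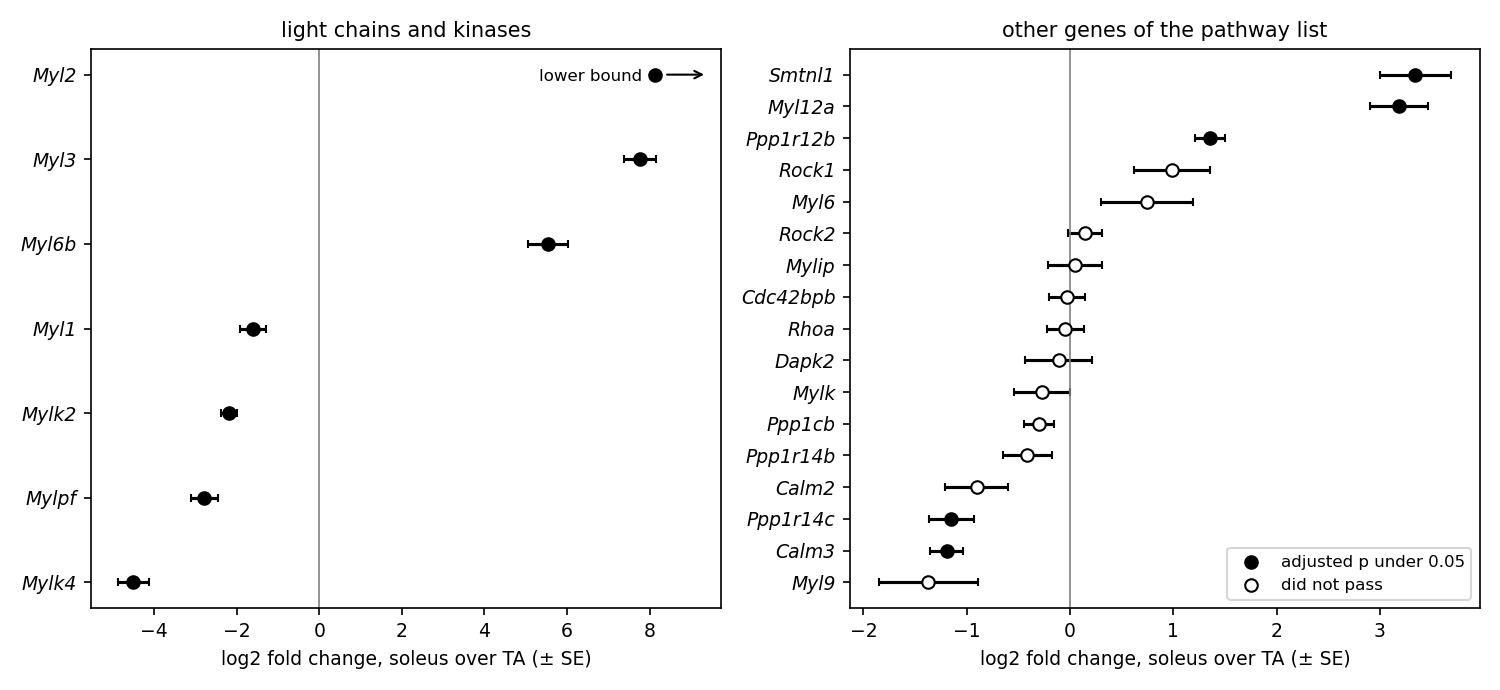
Log2 fold change of soleus over TA with its SE, derived from the edgeR F statistic, for the 7 genes (left) and for the 17 tested genes of the wider pathway list (right). Filled points passed an adjusted p under 0.05; Myl2, with no count in TA, is drawn at its lower bound of 279-fold. All 7 points at left are filled, and 5 of 17 at right.

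Markers were checked against the muscle labels. All 6 slow fiber markers were higher in soleus, with a summed level of 6359 to 7858 CPM against 2.26 to 14.0 CPM in TA, where Tnni1 was at 0. All 6 fast fiber markers were higher in TA, at 55769 to 73167 CPM against 11442 to 17497 CPM. Myh7, the slow myosin heavy chain, was at 2394 ± 252 CPM (SD, n = 5) in soleus and 0.462 ± 1.03 CPM in TA, and Myh4, the fastest heavy chain, at 0.234 ± 0.523 and 1459 ± 559 CPM. Myh2, a further fast heavy chain that was not in the marker list, went the other way. It was at 17.8 ± 7.76 CPM in soleus and 4.51 ± 3.20 CPM in TA, from 71 and 20 counts. Its log2 fold change was 1.95 (SE 0.54, adjusted p = 0.0214 by edgeR). Because Myl2 and Myl3 are also ventricular genes, cardiac markers were read beside them. Of 5, Myl7 and Tnni3 were at 0 in all 10 libraries, and Nppa was at 0 in soleus. The summed level was 21.1 to 66.4 CPM in soleus, from Myh6 and Ryr2, and 0 to 4.63 CPM in TA. The 1 cardiac marker that could be tested was higher in soleus. Endothelial markers moved with the fast genes, with 3 of 3 tested higher in TA and a sum of 339 to 876 CPM against 248 to 305 CPM in soleus, and 2 of 4 tested smooth muscle and pericyte markers did so. The part of vessel RNA in the results was not tested. Soleus female 2 stood apart with 22862 transcripts listed against 14993 to 16575 in the others. Without it, all 7 genes were still called, with log2 fold changes of 7.79 for Myl3, 5.88 for Myl6b, -1.61 for Myl1, -2.66 for Mylpf, -4.44 for Mylk4 and -2.14 for Mylk2.

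Levels of different genes are given per kilobase, separately for light chains and kinases, and within a limit set by how much of each gene the files can count. In soleus the light chains were Myl3 at 1175 ± 407 CPM per kilobase (SD, n = 5), Myl2 at 558 ± 166, Myl6b at 180 ± 91.2, Mylpf at 148 ± 66.4 and Myl1 at 24.3 ± 3.46. Of neighbours in that order, the ranges of Myl3 and Myl2 overlapped, though Myl3 was higher in every soleus library. The ranges of Myl6b and Mylpf overlapped too, while Myl2 lay clear above Myl6b and Mylpf clear above Myl1. The place of Myl2 depends on the division by length, since 84.3% of its counts fell on a transcript of 312 bases. Before that division, Myl2 and Myl6b were at 186 ± 53.6 and 185 ± 95.5 CPM in soleus and overlapped, and Myl3 lay clear above both. In TA the light chains were Mylpf at 1018.5 ± 325, Myl1 at 74.6 ± 34.2, Myl3 at 5.36 ± 4.34, Myl6b at 3.58 ± 1.85 and Myl2 at 0, of which Myl3 and Myl6b overlapped. In soleus the kinases were Mylk2 at 117 ± 27.2 and Mylk4 at 45.0 ± 27.5. In TA they were Mylk4 at 1261 ± 480 and Mylk2 at 522 ± 154. Their ranges overlapped in both muscles, though Mylk2 was higher in every soleus library and Mylk4 in every TA library but female 2. The Mylk4 level depends on how counts were split over its transcripts, each divided by its own length. In TA, Mylk4-201 (5571 bases), Mylk4-204 (1541 bases) and Mylk4-202 (709 bases) were at 2322, 811 and 225 CPM before that division.

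Counts are given per transcript. Of the 38 annotated transcripts of the 7 genes, only Myl1-206 has no sequence of its own, and it had no count. Own sequence is given as the number of 31-base words that no other annotated transcript holds. Mylk2-201, the single transcript of its gene, had 2898 such words, 99.8% of its words, and 8422 counts over the 10 libraries. Mylk4-201 had 4667 and 10760 counts. Mylpf-201 had only 150 words of its own and 3831 counts, and Myl3-201 had 97 and 4399 counts. Per own word, that is 2.91 counts for Mylk2-201 and 2.31 for Mylk4-201, against 25.5 for Mylpf-201 and 45.4 for Myl3-201. Light chain genes and kinase genes therefore cannot be ranked against each other from these counts, and the order among the light chains carries the same limit, while each gene can be compared with itself between muscles where the muscles use its transcripts alike. Neither the aligner nor the counter is given in the sources used here.

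**Figure D4:**
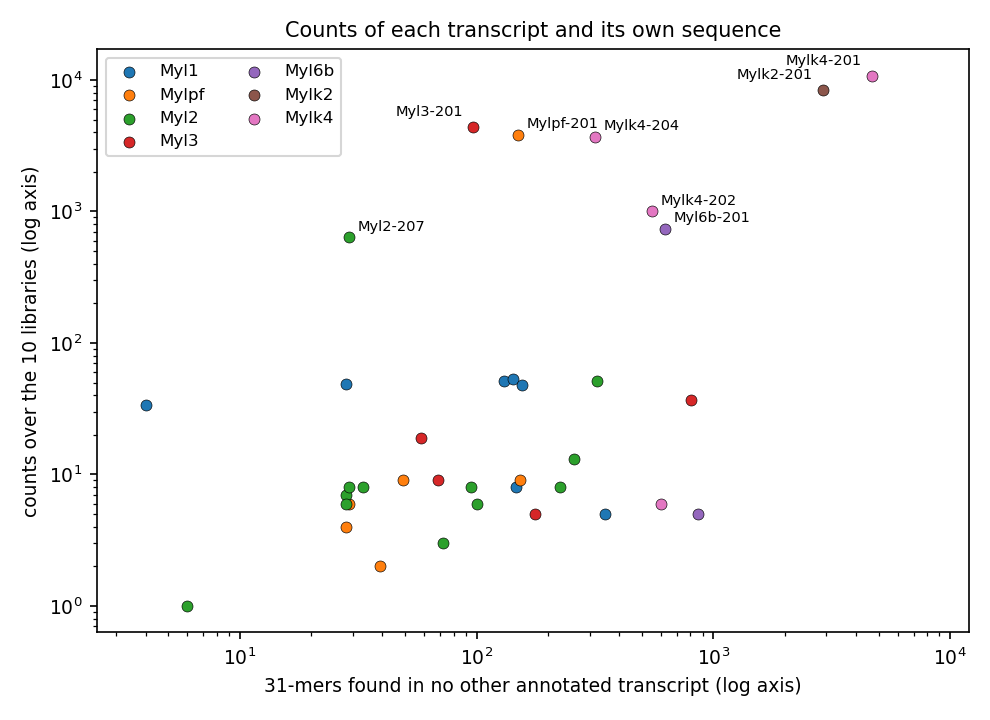
Counts over the 10 libraries (log axis) against the number of 31-base words found in no other annotated transcript (log axis), for the 37 transcripts of the 7 genes with a count. Each point is a transcript, coloured by gene, and those with more than 500 counts are named. Myl3-201, Mylpf-201 and Myl2-207 hold 4399, 3831 and 639 counts on 150 or fewer words each.

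Within Myl2, counts did not follow the number of own words, with 51 counts on the 323 of Myl2-203 and 639 on the 29 of Myl2-207. Of its 758 counts, 639 fell on Myl2-207, a short annotated transcript of 312 bases, and 1 on Myl2-201, which has 6 own words. The own sequence of Myl2-207 lies in exons 3 and 4, and its coding parts are shown because this transcript holds 84.3% of the gene's counts. The second stretch runs to the annotated end of the transcript.
Myl2-207, first stretch, chr5:122103906-122104624, plus strand: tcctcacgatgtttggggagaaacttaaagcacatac
Myl2-207, second stretch, chr5:122104655-122104706, plus strand: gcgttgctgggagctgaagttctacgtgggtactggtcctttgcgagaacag

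Of 38 annotated transcripts of the 7 genes, 37 had a count and 11 could be tested, and 10 were called between muscles (24.2% of 5089 tested transcripts were called, and 35.5% were under 0.05 before adjustment). Of these 4 were higher in soleus and 6 in TA. The exception was Myl1-203, an alternative Myl1 transcript, with a log2 fold change of -1.16 (SE 0.62, adjusted p = 0.208 by edgeR). Myl1-201, the long fast chain, differed by -2.20 (SE 0.61, adjusted p = 0.0202), from 8 counts in soleus and 43 in TA. Myl1-202, the short chain, had 10 and 24 counts and was not tested. Transcripts from the upstream Myl1 start, 3 in number, made up 18.6% ± 15.0 (SD, n = 5) of Myl1 counts from either start in soleus and 30.6% ± 6.06 in TA, and the libraries overlapped. That start held 9 of 47 such counts in soleus and 47 of 153 in TA, and no test was made of its use.

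Mylk4 was counted on 3 main transcripts, each higher in TA. Mylk4-201, the longest and protein-coding, differed by -4.31 (SE 0.35, adjusted p = 3.65e-06 by edgeR). Mylk4-204, also protein-coding, differed by -4.69 (SE 0.46), and Mylk4-202, annotated as a processed transcript with no coding sequence, by -6.24 (SE 0.49). As a share of Mylk4 counts, Mylk4-202 was at 0%, 1.02%, 4.44%, 2.86% and 0% in soleus of males 1, 2 and 3 and females 1 and 2. In TA it was at 6.51%, 6.75%, 6.93%, 6.03% and 7.52% in the same order. The muscles did not overlap, at 1.66% ± 1.94 (SD, n = 5) and 6.75% ± 0.549, yet the soleus share rests on 11 of 594 counts, with an exact 95% binomial interval of 0.928% to 3.29%. Mylk4-201 was at 79.0% ± 4.91 in soleus and 69.2% ± 1.10 in TA, and Mylk4-204 at 19.3% ± 4.33 and 24.0% ± 1.04.

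A test of transcript usage, whether the transcripts of a gene differ by unequal amounts, called 22% of 227 genes and none of the 3 that could be tested here. The edgeR adjusted p was 0.0982 for Mylk4, 0.384 for Myl2 and 0.481 for Myl1, and only Mylk4 was under 0.05 before adjustment (1 of 3 genes, against 31.3% of all tested). Leaving out soleus female 1 gave an adjusted p of 0.00399 for Mylk4, in a fit that also let more transcripts of the 7 genes past the filter on low counts (15 against 11). No other tool was run for usage.

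**Figure D5:**
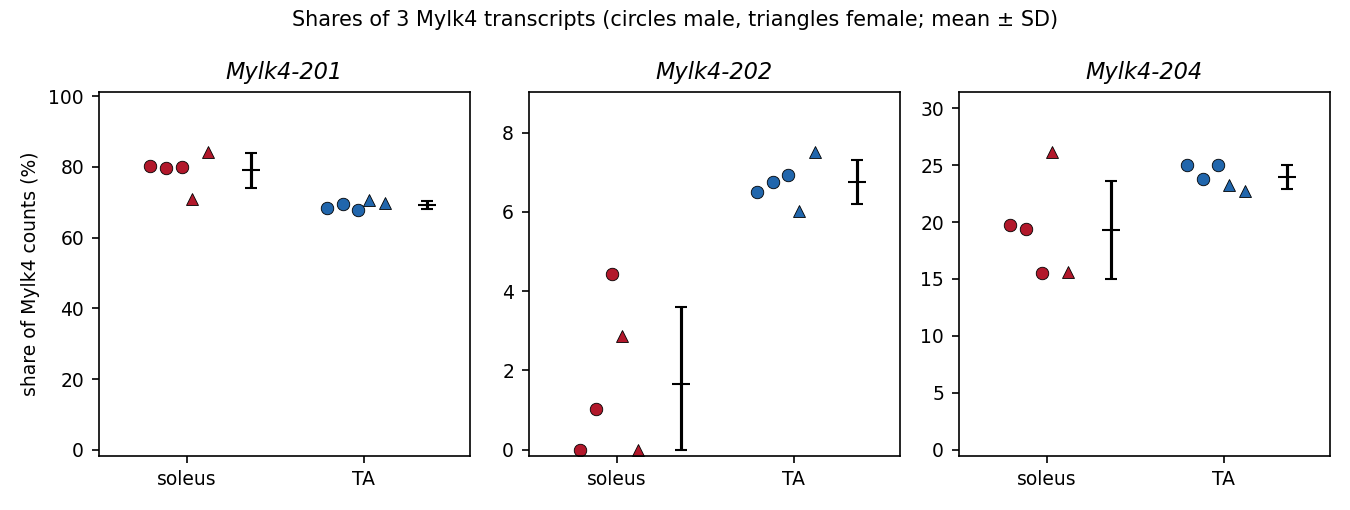
Share of Mylk4 counts on 3 transcripts in each library, in percent on linear axes that start at 0, by muscle. Circles are male and triangles female libraries, with the mean and SD over 5 libraries, the bar of Mylk4-202 in soleus being drawn down to 0 only. Mylk4-202 lies between 0% and 4.44% in soleus and between 6.03% and 7.52% in TA, while Mylk4-204 overlaps between the muscles.

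The labelled sexes were checked first. Of 4 Y-linked genes, Ddx3y had 6 to 20 counts in each male library and 0 in each female one, and Eif2s3y had 3 to 12 in males and 1 in soleus female 1, with 0 in the other females. Kdm5d and Uty were counted in females too, with 92 and 18 counts in soleus female 2 against at most 23 and 6 in a male library. Xist, the RNA of the inactive X, had 0 counts in all 10 libraries and so checks nothing here. No difference of the 7 genes between males and females passed the test. In soleus edgeR called 0 of the 7 and 0.547% of all genes, and in TA 0 of the 7 and 0.645%. Before adjustment, p was under 0.05 for 1 of 7 genes in each muscle, against 16.5% of all genes in soleus and 11.7% in TA, and no other tool was run. That gene was Mylk4 in both, with opposite signs. In soleus the male mean was 112 CPM and the female mean 204 CPM, a log2 difference of -0.86 for male minus female (SE 0.32, adjusted p = 0.216 by edgeR). In TA the means were 4127 and 2247 CPM, a log2 difference of 0.88 (SE 0.32, adjusted p = 0.299).

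Between muscles, the Mylk4 log2 fold change was -5.19 (SE 0.22) in males and -3.43 (SE 0.49) in females. The test of that difference, the interaction of muscle and sex, gave -1.74 (SE 0.46, adjusted p = 0.501 by edgeR), and -2.20 to -1.03 with 1 library left out. It called 0% of genes, with 6.86% under 0.05 before adjustment, and Mylk4 was the 1 gene of the 7 among them. With no filter on low counts the adjusted p of Mylk4 was 0.00234, and over those fits with 1 library left out it ran from 0.0643 to 0.852. Mylk4 therefore passed in 1 of the settings tried and not in the others. For Myl3, the male mean in soleus was 1325 CPM and the female mean 747 CPM, a log2 difference of 0.83 (SE 0.39, adjusted p = 0.318).

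Fitted in males alone, all 7 genes were called (24.6% of 4091 genes tested). In females alone, with 2 libraries per muscle, 0.434% of 4375 genes were called, and of the 7 only Myl2 and Myl3. The other log2 fold changes in males and females were -1.61 and -1.54 for Myl1, -3.07 and -2.31 for Mylpf, 6.35 and 4.79 for Myl6b and -2.20 and -2.10 for Mylk2. All 7 kept their direction in both sexes and in each of the 5 pairs of soleus and TA libraries with the same sex and number.

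The wider pathway covers the other light chain genes, other kinases of light chains, the subunits and inhibitors of the phosphatase that removes the phosphate, calmodulin and modulators. Of 33 listed genes, 30 had a count and 17 were tested, of which 3 were higher in soleus, 2 were higher in TA and 12 were not called, against 11% in each direction over all genes. Their median log2 fold change was -0.05, beside 0.01 over all genes tested. The largest differences were those of Smtnl1 and Myl12a. Smtnl1, a smoothelin-like protein that binds the phosphatase targeting subunit, was at 1156 ± 136 CPM (SD, n = 5) in soleus and 135 ± 99.9 in TA, a log2 fold change of 3.34 (SE 0.35, adjusted p = 2.02e-05 by edgeR).

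Myl12a, a regulatory light chain of nonmuscle myosin, was at 109 ± 34.8 CPM in soleus and 12.0 ± 5.08 in TA, a log2 fold change of 3.19 (SE 0.28, adjusted p = 5.51e-06 by edgeR). Its transcripts also differed by unequal amounts (usage adjusted p = 0.0333). Ppp1r12b, the targeting subunit of striated muscle myosin phosphatase, was at 757 ± 115 CPM in soleus and 294 ± 40.5 in TA, a log2 fold change of 1.36 (SE 0.15). Its catalytic partner Ppp1cb was not called, at 217 ± 35.7 and 270 ± 70.3 CPM (log2 fold change -0.30, adjusted p = 0.164 by edgeR).

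Toward TA lay Calm3, one of the calmodulin genes, at 90.7 ± 30.5 CPM in soleus and 204 ± 39.6 in TA (log2 fold change -1.20, SE 0.16), and Ppp1r14c, a phosphatase inhibitor, at 22.2 ± 5.69 and 49.7 ± 15.7 CPM (-1.15, SE 0.22). Calm2, a second calmodulin gene, missed the threshold at -0.90 (SE 0.30, adjusted p = 0.0501 by edgeR) and passed it without soleus female 2, at -1.15 (adjusted p = 0.0115), without TA female 2, at -1.05 (0.0418), with upper-quartile scaling (0.0402), with protein-coding transcripts (0.0273) and in males alone (0.0201). Myl9, the regulatory chain of smooth muscle, passed in a single setting, that without soleus female 2, at -1.72 (adjusted p = 0.0296), against -1.37 (SE 0.48, adjusted p = 0.0592) with it. Mylk, the kinase of smooth muscle, was at 13.4 ± 1.81 CPM in soleus and 16.2 ± 4.73 in TA, and Myl6, the essential chain of smooth and nonmuscle myosin, at 9.63 ± 4.90 and 5.88 ± 2.64 CPM. Neither was called, with adjusted p of 0.539 and 0.269. Myl4, Mylk3 and Ppp1r12a had 11, 3 and 27 counts over all libraries and were not tested. All 5 genes called here were lost in females alone (0 of 15 called by edgeR, 5 of 15 under 0.05 before adjustment), while DESeq2 on all libraries called 5 of 17 (20.9% of all genes).

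The RefSeq promoter table holds 6 of the 7 genes, but both of its Myl2 windows end before the Myl2 gene start given above and so precede no start of a counted transcript. The other 5 genes were read. In the 250 bases before each start, both strands were searched for the CArG box, which serum response factor binds, the site of MEF2 factors, the E-box CANNTG of myogenic factors and the MCAT element CATTCC of TEAD factors. A CArG box was in the Myl3 window and in no other of the 5 genes, and 1.47% of 32851 promoter windows hold one. A MEF2 site was in the Mylk4 window alone, against 2.92% of all windows. That window lies before the start of Mylk4-202 (32783954), the transcript with no coding sequence and 1010 counts. Mylk4-201 and Mylk4-204, with 10760 and 3714 counts, start further into the gene, at 32781716 and 32776413. The Myl1 window lies at the upstream start, which held 9 of 47 counts from either start in soleus and 47 of 153 in TA. The MCAT element was found in Myl1 and, at 2 places, in Myl3 (12.6% of all windows), and an E-box in each of the 5 genes (66.2%). Myl3 and Mylk4 are shown, the most counted of the 7 genes in soleus and in TA, from RefSeq on GRCm38.p6, with the CArG box and the MEF2 site in capitals. These matches are descriptions of letters in a window.
Myl3, chr9:110763428-110763677, plus strand: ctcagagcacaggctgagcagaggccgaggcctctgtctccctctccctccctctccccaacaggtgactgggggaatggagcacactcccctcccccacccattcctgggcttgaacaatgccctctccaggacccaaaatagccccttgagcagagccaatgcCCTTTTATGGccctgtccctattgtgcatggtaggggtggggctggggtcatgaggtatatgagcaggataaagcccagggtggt
Mylk4, chr13:32783965-32784214, minus strand: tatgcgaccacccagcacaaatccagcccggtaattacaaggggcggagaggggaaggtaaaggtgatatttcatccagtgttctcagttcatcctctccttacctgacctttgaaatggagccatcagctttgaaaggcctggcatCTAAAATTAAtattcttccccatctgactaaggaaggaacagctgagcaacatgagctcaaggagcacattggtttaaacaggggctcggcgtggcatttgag

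For each of the 7 genes the 3 protein-coding genes with the most similar log2 CPM were named, by Pearson r over the 10 libraries. The search covered 4288 tested genes whose mean was 10 CPM or more, and the 7 genes themselves were left out of it. The libraries share depth and muscle, so a gene that differs strongly between muscles has a high r with any other that does, and no p is given. For the slow genes they were Tnni1 (r = 0.998), Xpo4 and Tnnc1 for Myl2, Kremen1 (0.990), P3h2 and Tnnc1 for Myl3, and Tecrl (0.979), Tpm3 and Vegfd for Myl6b. Tnni1, Tnnc1 and Tpm3 are the slow troponin I, the slow troponin C and the slow tropomyosin. For the fast genes they were Ube2c (0.983), Tpm1 and Sms for Mylpf, and Stk10 (0.947), Peg3 and Smoc2 for Myl1. For the kinases they were Atp2a1 (0.993), the calcium pump of fast fibers, Mafa and Rbfox1 for Mylk2, and Gpd1 (0.990), Eno3 and Myom2 for Mylk4. Eno3 is the muscle enolase of glycolysis and Gpd1 a glycerol phosphate dehydrogenase.

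With the mean of each muscle removed, other genes led. They were Gspt1, Ddost and Nans for Myl2, Qk, Plpp1 and Ndufs8 for Myl3, and Fam160b1, Pggt1b and 2510039O18Rik for Myl6b. They were Pex11a, Sox4 and Lama4 for Myl1, Jrkl, Incenp and Ube2c for Mylpf, Mfsd4a, Auh and Mafg for Mylk2, and Cfdp1, Sparcl1 and Dchs1 for Mylk4. The highest r of each was between 0.891 and 0.950. Each is the largest of 4288 values over only 10 libraries. Such a search yields high values by itself, and how high was not tested. Ube2c, an enzyme of ubiquitin transfer in dividing cells, was the one gene named for the same member both ways, with r = 0.983 and 0.891 to Mylpf.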

How the data were processed

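The authors deposited 1 table per library with whole-number read counts of Ensembl transcripts, and transcripts without a read are left out. Per the submitters' processing notes, bcl2fastq, Trimmomatic 0.32 and FastQC were used, with genome build GRCm38.p4. Per the labels' protocols, cDNA came from a Takara SMART-Seq Stranded preparation; whether counting used strand was not given in the sources used here, and Myl2 and Myl3 overlap genes on the other strand (Ccdc63 and Pth1r). Transcripts were matched to GENCODE M21 (40359 of 40414; the rest held 0.0304% of counts) and summed to genes. Between 17.2% and 28.4% of counts fell on Gm20594 and 3.85% to 6.26% on Cep295. Of 4 Y-linked genes, Ddx3y alone was counted in all 6 male libraries and in none of the 4 female ones.

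edgeR 4.0.16 in R 4.3.3 was used with TMM and filterByExpr by the 4 groups of muscle and sex: muscle with sex as a covariate, a mean per group for sex and the interaction, and diffSpliceDGE for usage. The SE of an edgeR log2 fold change was derived as its absolute value divided by the square root of the F statistic. DESeq2 1.42.0 was an alternative, and the fits were tested on simulated data. The 7 genes, the lists and the rule for named genes (all 7, called genes of the pathway list and a fixed set of others, and the 3 most similar genes) were chosen with earlier results of these data known. With the mean of each muscle and sex removed, same-numbered soleus and TA libraries deviated together. The r was 0.229, 0.183 and 0.239 in males and a shared 0.285 in females. Between males of different numbers it was at most -0.0705, but with means removed, positive values for same-numbered males push the others below 0. A fit with the replicate as a block was therefore an alternative. Others were scaling, filters, library sizes without Gm20594 and Cep295, protein-coding transcripts, 1 sex, and each library left out.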

Additional observations from a re-analysis of the deposited data

Results flagged for a closer look

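In groups of 5 libraries, a value was set apart when its gap to the nearest library, divided by the range of the group, was above 0.71. Of 48 groups checked, 6 had such a value. Among independent, normally distributed values about 1 in 20 groups would have one. These groups reuse the same libraries and include low counts, so 6 of 48 cannot be judged against that share. For the kinase genes, Mylk2 was at 2363 CPM in TA female 2, with the nearest TA library at 1476 CPM, and Mylk4 was at 277 CPM in soleus female 1, with the nearest at 131 CPM. In the wider list, soleus female 2 was high for Rock1, at 177 CPM with the nearest at 46.8 CPM, and low for Ppp1r14b, at 10.3 CPM with the nearest at 19.8 CPM. Of its 155 Rock1 counts, 118 fell on Rock1-206, annotated as a retained intron, against 6 to 17 in each other library. The protein-coding Rock1-201 had 22 counts there and 8 to 22 in the others. Retained introns held 8.21% of counts in soleus female 2 and at most 7.25% in any other library. TA female 2 was low for Myl9, at 4.02 CPM with the nearest at 10.5 CPM, and soleus male 3 was high for Ppp1r14c, at 31.95 CPM with the nearest at 21.1 CPM. Without soleus female 2 the log2 fold change of Rock1 was 0.38, against 0.99 with it, and it was called in neither fit. It was called without soleus female 1 (1.18, adjusted p = 0.00559 by edgeR) and with no filter on low counts (0.90, adjusted p = 0.00496).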

How the results depend on the processing

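All 7 genes kept their direction in every alternative and were called in each except the fit of females alone, which called 2 of them, 0 of the 15 pathway genes tested (5 before adjustment) and 19 of all genes, against 7, 5 of 17 and 1126. The fit with the replicate block called the same numbers of the 7 genes (7), of the pathway genes (5) and of transcripts (10), no gene for usage (0), and 1207 of all genes; the pairing changed no call among the named genes. Leaving out 1 library gave 892 to 1353 called genes, 7 of the 7 genes each time, 5 to 7 pathway genes, 9 to 13 transcripts, 0 to 1 genes for usage and 0 to 1 for sex in soleus. The 1 for sex in soleus was Myl6b without soleus female 1 (1.44, adjusted p = 0.0382). With no filter on low counts, 1 gene was called for sex in soleus (Myl3, 0.91), 1 for sex in TA (Mylk4, 0.91) and 1 for the interaction (Mylk4, -1.72), by edgeR; the cause was not tested.

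Protein-coding transcripts alone gave a Myl1 share of 1.11% in soleus and 84.0% in TA, and CPM not divided by length a Mylpf share of 36.6% in soleus. Uncalled genes near 0 changed sign. Cdc42bpb (main -0.03) was at 0.0024 with protein-coding transcripts, 0.072 in females alone, and 0.063, 1.24e-05 and 0.029 without TA male 1, TA male 2 and TA female 1 (-0.13 to 0.063 without 1 library). Dapk2 (-0.11) was at 0.11 without soleus male 3 (-0.34 to 0.11). Mylip (0.05) was at -0.016 with no filter, -0.30 in males alone, and -0.12 and -0.18 without TA female 1 and soleus female 2 (-0.18 to 0.17). Rhoa (-0.05) was at 0.019 in males alone, and 0.019 and 0.12 without TA male 2 and soleus female 2 (-0.23 to 0.12), and Rock2 (0.15) at -0.10 in males alone. Counts were few for Myl1 (57 in soleus), for Myl3, Myl6b and Myl2 in TA (22, 17 and 0) and for Mylk4-202 in soleus (11).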
